A study of Arabidopsis thaliana with 6 samples.

Results

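The salicylic acid defence genes described here are 10 genes of Arabidopsis thaliana, chosen by name from the 37336 genes of the deposited table: the synthesis gene SID2 (AT1G74710), the regulators EDS1 (AT3G48090), PAD4 (AT3G52430), CBP60G (AT5G26920), SARD1 (AT1G73805), NPR1 (AT1G64280) and WRKY70 (AT3G56400), and the outputs PR1 (AT2G14610), PR2 (AT3G57260) and PR5 (AT1G75040). Their RNA was measured in whole siliques, the fruits with their developing seeds, of self-pollinated plants 1 to 5 days after pollination. The groups were the eml1-2 eml3-4 double mutant (eml1 eml3, 3 libraries) and the wild type (WT, 3 libraries), and no treatment or pathogen is given in the labels. EML proteins carry an ENT domain and a Tudor-like domain, and the title of the series calls them histone readers. The labels give neither the age of the plants nor the accession of either genotype, and do not state that the libraries came from separate plants. The p-values therefore cover the spread among these 6 libraries, part of which may be technical.

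Salicylic acid is the hormone that plants make against pathogens that feed on living tissue. Most of it is built from chorismate by the plastid enzyme isochorismate synthase (SID2), whose gene is switched on by the related transcription factors CBP60g and SARD1. EDS1 and PAD4 pair to relay signals from intracellular immune receptors, NPR1 perceives salicylic acid and works with TGA transcription factors, and secreted PR proteins are among the most used markers of the response.

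The start regions of 3 genes are shown: those of CBP60G and PR2, the pair that differed between the genotypes in the test used here, and that of SARD1, the close relative of CBP60G that did not pass it. Each is the 250 bases before the annotated start of the gene, 5′ to 3′ on the strand of the gene, from RefSeq TAIR10.1, looked up by gene ID. CBP60G lies on chromosome 5 (plus strand), PR2 on chromosome 3 (minus strand) and SARD1 on chromosome 1 (minus strand), and none of these windows overlaps another annotated gene. Capitals mark the core of the W-box, TTGAC on either strand (GTCAA when read on the other), the element that WRKY factors bind.
CBP60G: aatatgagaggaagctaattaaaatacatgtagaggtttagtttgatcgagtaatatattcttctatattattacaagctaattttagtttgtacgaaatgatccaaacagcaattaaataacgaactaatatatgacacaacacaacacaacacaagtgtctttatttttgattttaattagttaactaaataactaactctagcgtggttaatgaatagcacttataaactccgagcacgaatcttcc
PR2: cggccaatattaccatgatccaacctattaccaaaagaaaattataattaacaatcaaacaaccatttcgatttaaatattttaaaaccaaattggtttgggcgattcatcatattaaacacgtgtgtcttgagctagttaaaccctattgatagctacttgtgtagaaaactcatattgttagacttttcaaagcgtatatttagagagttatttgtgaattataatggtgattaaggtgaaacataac
SARD1: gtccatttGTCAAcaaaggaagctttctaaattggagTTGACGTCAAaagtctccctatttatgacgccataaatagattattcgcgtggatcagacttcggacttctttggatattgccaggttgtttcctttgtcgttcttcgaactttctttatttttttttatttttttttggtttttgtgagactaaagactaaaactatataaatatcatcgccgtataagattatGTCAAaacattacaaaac

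The W-box core was in 5 of the 10 start regions, those of PR1, PR5, EDS1, SARD1 and WRKY70, against 44.9% of 27561 such regions in the genome. SARD1 held 4 cores, a pair of them side by side in a palindrome, and the windows of CBP60G and PR2 held none. The core of the TGA factor site, TGACG on either strand, was in 2 of the 10, SARD1 and WRKY70, against 18.5% of all. It shares bases with the W-box core where the letters TTGACG occur. A match is a description of the letters and not of binding.

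Recovered depth was 26771227 to 39246167 reads per library, and values are normalized read counts, that is reads divided by a size factor of the library. EML3, the gene targeted by eml3-4, had 187 ± 12.6 normalized counts in eml1 eml3 and 2367 ± 310.4 in WT (SD, n = 3 each; limma adjusted p = 2.24e-06). EML1 stood at 1144 ± 83.7 in eml1 eml3 and 1281 ± 88.0 in WT (SD, n = 3 each; limma adjusted p = 0.499), and since reads are summed over the gene this is no check of the eml1-2 allele. In limma, at an adjusted p under 0.05, 1476 genes passed, 802 higher and 674 lower in eml1 eml3, with a split of 615 higher and 863 lower when the libraries were rescaled to one total. The count was 662, 573 and 2537 without eml1 eml3 replicates 1, 2 and 3, and 819, 609 and 827 without WT replicates 1, 2 and 3. In eml1 eml3 replicate 3 genes of maturing seeds stood far above the other libraries: the summed normalized count of 11 storage protein and oleosin genes was 325, 307 and 70146 in eml1 eml3, against 662, 498 and 289 in WT, with CRU2, SESA1 and SESA5 at 0 in at least 1 library. Results are therefore also given without that library. Of the 11 genes 0 passed in limma with all 6 libraries, with 10 log2 changes positive and 1 negative. Without both libraries numbered 3, OLEO1 and OLEO2 passed as lower in eml1 eml3 (log2 changes -3.18 and -4.81, limma adjusted p = 0.0105 and 0.00516).

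All 10 genes had a mean normalized count of at least 10 over the 6 libraries and were tested. CBP60G reached that mean through the double mutant, since its WT mean was 6.91. In limma, on log2(normalized count + 1), CBP60G and PR2 passed an adjusted p of 0.05, both higher in eml1 eml3, and no gene of the 10 passed in the other direction. Of all 21751 genes tested, 6.79% passed, 3.69% as higher and 3.10% as lower. At an unadjusted p under 0.05 there were 4 of the 10, with EDS1 as higher and WRKY70 as lower beside that pair, against 21.5% of all tested genes. Neither edgeR nor DESeq2 called any of the 10 as lower. Without eml1 eml3 replicate 3, where 11.7% of all genes passed, 3 of the 10 did, CBP60G, PR2 and EDS1, all higher. In that setting the log2 changes of the others were -0.04 for SID2, 0.37 for PAD4, 0.44 for SARD1, 0.54 for NPR1, -0.47 for WRKY70, 1.22 for PR1 and 0.41 for PR5. In 5 of the 10 genes the values of the genotypes did not overlap, 4 higher and 1 lower in eml1 eml3, which held for 26.9% of all tested genes (14.0% higher and 12.8% lower). The median log2 change was 0.40 over the 10 genes and 0.00 over all tested genes.

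**Figure D1:**
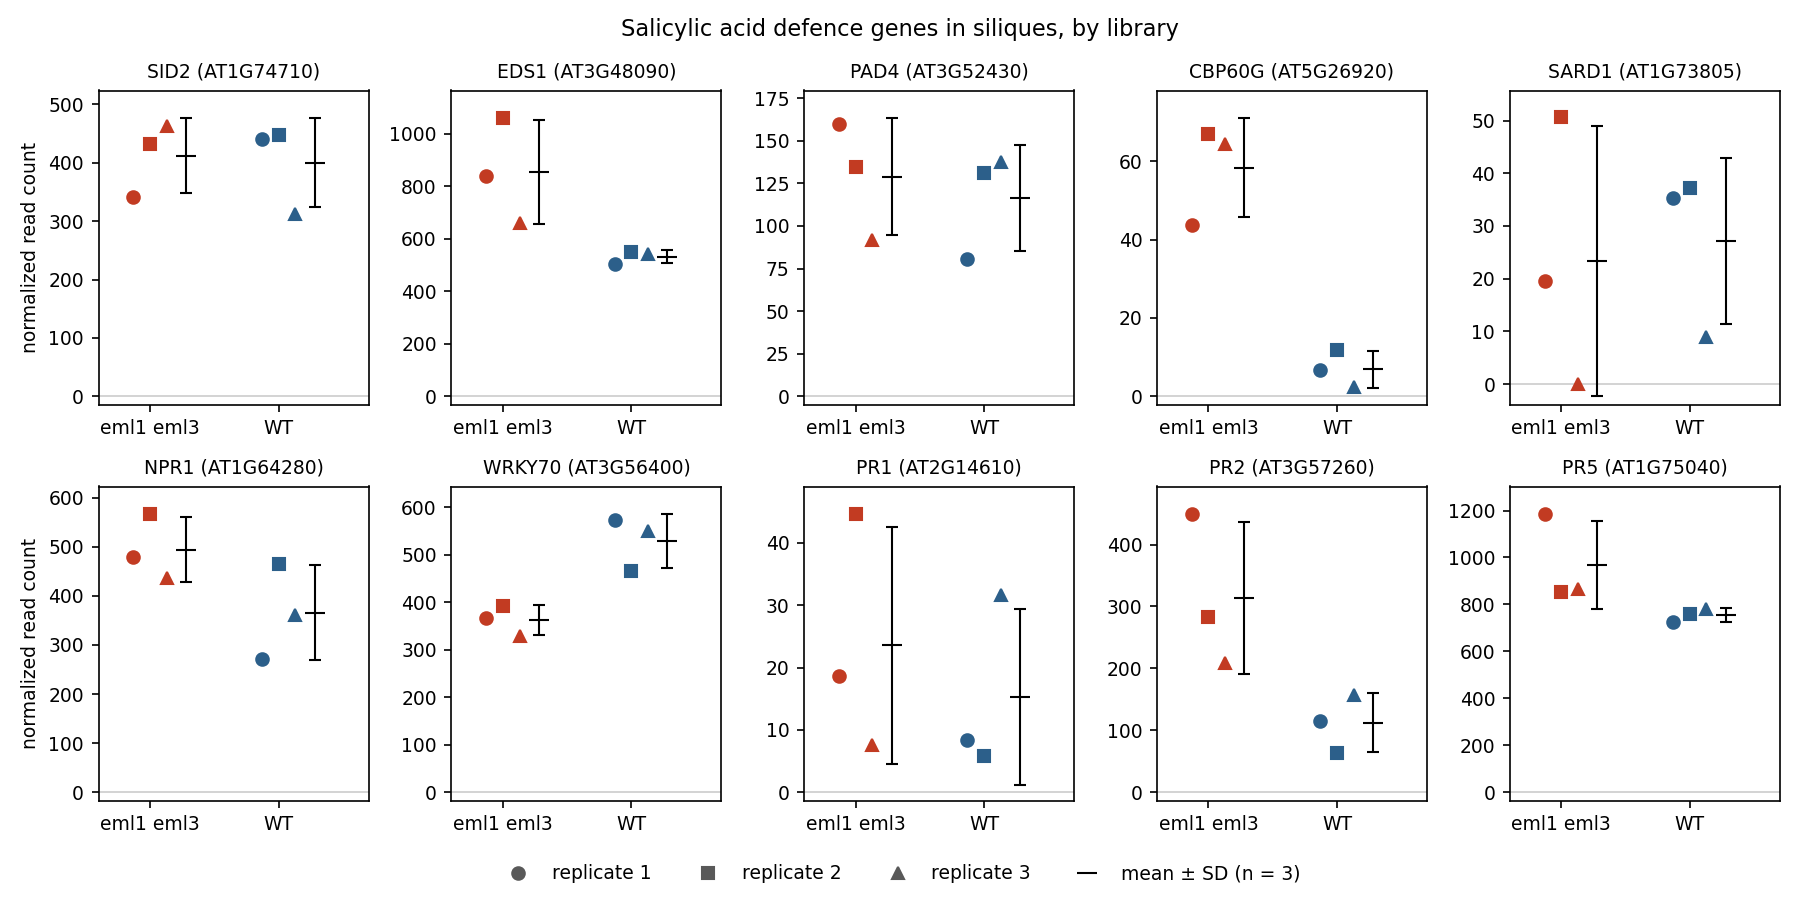
Normalized read count (y axis, grey line at 0) of each of the 10 genes in the 3 eml1 eml3 libraries (red, left) and the 3 WT libraries (blue, right). The mean ± SD (n = 3) is in black, and marker shapes show the replicates. CBP60G lay between 43.8 and 66.8 in eml1 eml3 and between 2.25 and 11.8 in WT, while SID2, PAD4, SARD1, NPR1 and PR1 overlapped between the genotypes.

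Of the transcription factors upstream of SID2, CBP60G was higher in eml1 eml3. Its normalized counts were 43.8, 66.8 and 64.3 in eml1 eml3 replicates 1, 2 and 3, against 6.71, 11.8 and 2.25 in WT replicates 1, 2 and 3. The lowest mutant library lay well above the highest WT library. The mean was 58.3 ± 12.6 in eml1 eml3 and 6.91 ± 4.75 in WT (SD, n = 3 each), a ratio of 8.44, and the log2 change was 3.09 ± 0.70 (SE; 95% confidence interval 1.55 to 4.63; limma adjusted p = 0.0265). These values rest on 54, 66 and 51 reads in eml1 eml3 and on 8, 12 and 2 reads in WT. Those reads may not be independent molecules. In siliques, which mix fruit wall, seed coat, endosperm and embryo, RNA from more cells of a type and more RNA per cell cannot be told apart, for this gene and those that follow. The log2 change of CBP60G was positive under all 19 alternatives in which it was tested, from 2.47 to 3.54. Without eml1 eml3 replicate 3 it was 3.01 (limma adjusted p = 0.0355). The call was lost without eml1 eml3 replicate 1 (limma adjusted p = 0.0856), eml1 eml3 replicate 2 (0.138) or WT replicate 1 (0.0633).

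SARD1, which shares targets with CBP60g, showed no such separation. Its normalized counts were 19.5, 50.6 and 0 in eml1 eml3, against 35.2, 37.2 and 9.02 in WT. The genotypes overlapped. The library with 0 reads, eml1 eml3 replicate 3, could have held up to 3 reads, or a normalized count of 3.78, by counting error. That bound takes reads as independent molecules, which they may not be. The mean was 23.4 ± 25.5 in eml1 eml3 and 27.2 ± 15.7 in WT (SD, n = 3 each), and the log2 change was -1.24 ± 1.31 (SE; limma adjusted p = 0.642). In edgeR and in DESeq2, on the recovered reads, the log2 change was -0.21, and it was -0.60 in limma with a pseudocount of 5. In limma the 95% confidence interval, -4.14 to 1.67, admits large changes in either direction, and without eml1 eml3 replicate 3 the log2 change was 0.44. SARD1 overlaps the gene AT1G73790 on the opposite strand over 640 bases (14.4% of SARD1). That neighbour averaged 1.50 in eml1 eml3 and 0.559 in WT.

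SID2, the enzyme whose gene both factors activate, did not differ beyond the spread between libraries. Its counts were 341, 432 and 464 in eml1 eml3, against 440, 448 and 312 in WT. The ranges overlapped almost fully, at 412 ± 63.9 in eml1 eml3 and 400.1 ± 76.1 in WT (SD, n = 3 each). The log2 change was 0.05 ± 0.21 (SE; limma adjusted p = 0.922), and its 95% confidence interval ran from -0.41 to 0.51, which leaves out a 2-fold change in either direction. A rise in CBP60G RNA thus stood beside no detectable change of SID2 RNA in the same libraries.

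EDS1 and PAD4 encode lipase-like proteins that act as a dimer. EDS1 had normalized counts of 840, 1058 and 662 in eml1 eml3, against 504, 549 and 543 in WT. All mutant libraries were above all WT libraries, and the mutant libraries were the more spread. The mean was 853 ± 199 in eml1 eml3 and 532 ± 24.4 in WT (SD, n = 3 each), a ratio of 1.60, with a log2 change of 0.66 ± 0.18 (SE; 95% confidence interval 0.25 to 1.06). EDS1 did not pass the threshold (limma adjusted p = 0.0593). It passed without eml1 eml3 replicate 3 (log2 change 0.83, limma adjusted p = 0.00931). Left out singly, each of the other libraries gave EDS1 a limma adjusted p between 0.126 and 0.241. When the libraries were rescaled to one total its limma adjusted p was 0.102. EDS1 passed in DESeq2 on the recovered reads (adjusted p = 0.0125), where 10.3% of all genes with an adjusted p passed. In edgeR with its filter, where 6.49% of all genes passed, CBP60G and PR2 were again the members called and EDS1 had an adjusted p of 0.0522.

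PAD4, its partner, had counts of 160, 135 and 92.0 in eml1 eml3, against 80.5, 131 and 138 in WT. The genotypes overlapped, at 129 ± 34.3 in eml1 eml3 and 116 ± 31.3 in WT (SD, n = 3 each). The log2 change was 0.15 ± 0.34 (SE; 95% confidence interval -0.60 to 0.89; limma adjusted p = 0.846).

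NPR1, the salicylic acid receptor and co-activator, had counts of 479, 566 and 436 in eml1 eml3, against 271, 464 and 361 in WT. The lowest mutant library lay below the highest WT library. The mean was 494 ± 66.3 in eml1 eml3 and 365 ± 96.8 in WT (SD, n = 3 each), with a log2 change of 0.46 ± 0.22 (SE; 95% confidence interval -0.03 to 0.95; limma adjusted p = 0.263). NPR1 overlaps 2 annotated genes on the opposite strand, and the library protocol describes no step that marks the strand, so reads in the overlaps cannot be assigned by strand. The pseudogene AT1G64270 shares 38 bases with NPR1 and averaged 184 in eml1 eml3 and 85.6 in WT. The other, the non-coding gene AT1G08667, shares 214 bases and was listed at 0.

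WRKY70, a transcription factor induced by salicylic acid that represses jasmonate responses, had counts of 367, 392 and 329 in eml1 eml3, against 572, 465 and 549 in WT. It was the member whose mutant libraries all lay below the WT libraries. The mean was 363 ± 31.7 in eml1 eml3 and 529 ± 56.1 in WT (SD, n = 3 each), with a log2 change of -0.54 ± 0.17 (SE; 95% confidence interval -0.92 to -0.16). This did not pass the threshold (limma adjusted p = 0.0892), and it passed under none of the 20 alternatives, where the log2 change lay between -0.63 and -0.44.

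Among the outputs, PR2, a secreted beta-1,3-glucanase, was higher in eml1 eml3. Its counts were 449, 284 and 209 in eml1 eml3, against 116, 62.7 and 158 in WT. All mutant libraries were above all WT libraries, although eml1 eml3 replicate 3 stood close to WT replicate 3. The mean was 314 ± 123 in eml1 eml3 and 112 ± 47.7 in WT (SD, n = 3 each), a ratio of 2.80, with a log2 change of 1.50 ± 0.38 (SE; 95% confidence interval 0.66 to 2.35; limma adjusted p = 0.0430). The log2 change was positive under all 20 alternatives, from 1.14 to 2.05. The call was lost without eml1 eml3 replicate 1 (limma adjusted p = 0.177), eml1 eml3 replicate 2 (0.122), WT replicate 1 (0.0942) or WT replicate 2 (0.139). It was also lost with no filter on low genes (limma adjusted p = 0.0503) and when the libraries were rescaled to one total (0.0518). Without eml1 eml3 replicate 3 the log2 change was 1.76 (limma adjusted p = 0.0183).

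PR1, the most used marker of salicylic acid signalling, was low in every library. It had 18.7, 44.6 and 7.56 normalized counts in eml1 eml3, against 8.38, 5.88 and 31.6 in WT, from 6 to 44 reads. The libraries of each genotype differed from one another as much as the genotypes did. The mean was 23.6 ± 19.0 in eml1 eml3 and 15.3 ± 14.2 in WT (SD, n = 3 each), and the log2 change was 0.62 ± 0.89 (SE; limma adjusted p = 0.743). Its 95% confidence interval, -1.35 to 2.59, admits a change of the size seen for PR2.

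PR5, a thaumatin-like protein, had the highest level of the 10 per kilobase of exon. Its counts were 1184, 855 and 866 in eml1 eml3, against 724, 761 and 780 in WT. The genotypes did not overlap, and eml1 eml3 replicate 1 stood above the other two mutant libraries. The mean was 968 ± 187 in eml1 eml3 and 755 ± 28.3 in WT (SD, n = 3 each), a ratio of 1.28, with a log2 change of 0.34 ± 0.16 (SE; 95% confidence interval -0.01 to 0.69; limma adjusted p = 0.243). The 3 PR outputs thus differed in level and in precision, and PR2 was the one that passed.

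**Figure D2:**
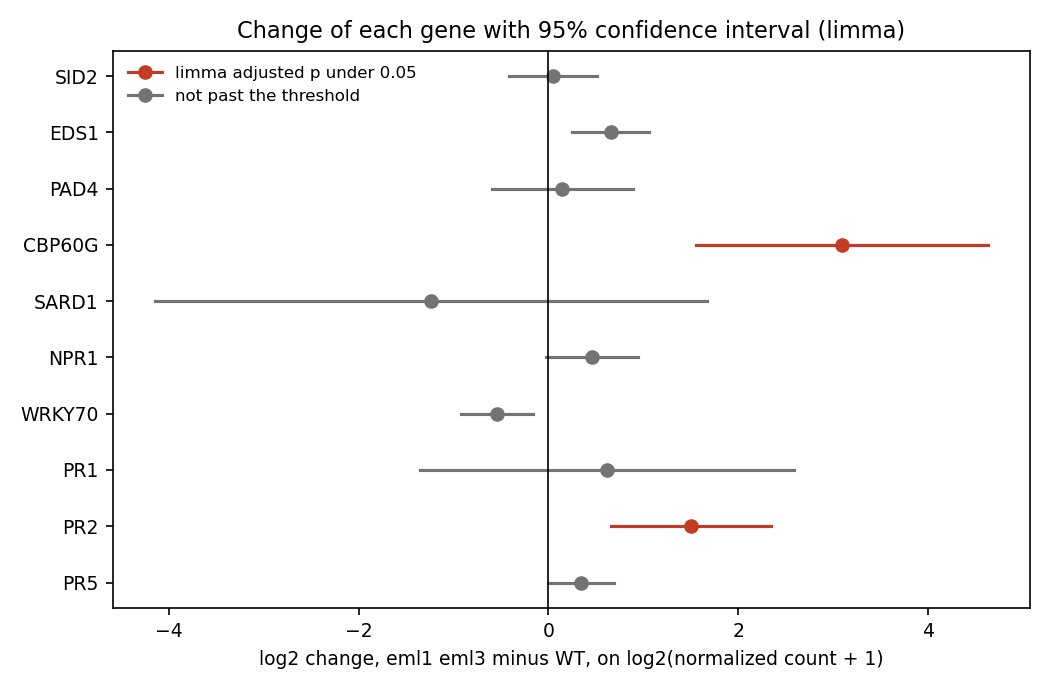
Log2 change of each gene, eml1 eml3 minus WT, on log2(normalized count + 1) (x axis, points), with its 95% confidence interval from limma (lines, 3 libraries per genotype). The intervals of CBP60G (1.55 to 4.63) and PR2 (0.66 to 2.35) belong to the pair past the adjusted threshold (red), and those of SARD1 and PR1 are among the widest.

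In the authors' deposited table the same 2 genes and EDS1 had an adjusted p under 0.05, in a table where 9.65% of genes with an adjusted p did. That table was made from the same libraries and is not a second measurement. It lists log2 fold changes of 3.06 for CBP60G (adjusted p = 0.000509), 1.49 for PR2 (adjusted p = 0.00137) and 0.68 for EDS1 (adjusted p = 0.0132) in the authors' deposited table. WRKY70 has an adjusted p of 0.0711 in the authors' deposited table, and for the other 6 genes it lies between 0.256 and 0.961.

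The order of the genes by level was compared per kilobase of annotated exon, as normalized count per kilobase. In eml1 eml3 the order of mean levels was PR5 (884), EDS1 (334), WRKY70 (247), PR2 (212), SID2 (189.1), NPR1 (188.8), PAD4 (57.1), PR1 (26.2), CBP60G (25.3) and SARD1 (9.75). Only PR5 and EDS1, and NPR1 and PAD4, were neighbours in that order whose libraries did not overlap. In WT the order was PR5 (690), WRKY70 (360), EDS1 (209), SID2 (184), NPR1 (140), PR2 (75.9), PAD4 (51.6), PR1 (16.9), SARD1 (11.3) and CBP60G (2.99). There the neighbours PR5 and WRKY70, WRKY70 and EDS1, and PAD4 and PR1 did not overlap. CBP60G thus stood above 11.5% of 21613 tested genes with a known length in eml1 eml3 and above 0.949% in WT. Its level in eml1 eml3 was still among the lowest of the 10. For PR2 these shares were 45.5% in eml1 eml3 and 24.9% in WT.

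No mutant library was the highest for all 10 genes. Of the 3 mutant libraries, replicate 2 was highest for 6 genes, replicate 1 for 3 and replicate 3 for 1, and replicate 3 was lowest for 7. Their median SD within a genotype, on the log2 scale, was 0.360, against 0.255 for all tested genes. SAG12, a protease gene of senescing tissue, stood at 11082, 3481 and 1695 in eml1 eml3, against 2366, 1745 and 3644 in WT, highest in the library where PR2 and PR5 were highest. The summed count of the 4 senescence markers was 3985 to 11927 in eml1 eml3 and 2670 to 4895 in WT. Of these 4 markers 0 passed in limma, with 2 log2 changes positive and 2 negative. SAG29, another of the 4, passed as lower without eml1 eml3 replicate 3 (log2 change -1.23, limma adjusted p = 0.0250). The part of these values, and of the maturing seed genes of eml1 eml3 replicate 3, in the differences of the 10 genes was not tested. Summed silique wall markers were 7368 to 8103 in eml1 eml3 and 7751 to 8388 in WT, and those of young seed and seed coat 19006 to 21114 in eml1 eml3 and 18524 to 23774 in WT, with no defining marker of either list at 0. Of the 6 tested markers of young seed and seed coat 0 passed in limma, and all 6 log2 changes were negative. TT10 stood at 486, 542 and 2093 in eml1 eml3, against 1300, 1172 and 1282 in WT. It passed as lower without eml1 eml3 replicate 3 (log2 change -1.28, limma adjusted p = 0.000392). Of the 6 silique wall markers 1 passed, SHP1, a MADS-box factor of the fruit valve margin, at 2246 ± 246 in eml1 eml3 and 3243 ± 243 in WT (SD, n = 3 each; log2 change -0.53 ± 0.12, SE; limma adjusted p = 0.0273), a call lost without any 1 library other than eml1 eml3 replicate 3. Sums of photosynthetic markers were 1124222 to 1457415 in eml1 eml3 and 977723 to 1167555 in WT, and those of pollen markers 8785 to 14144 in eml1 eml3 and 9949 to 19709 in WT. Of the 5 pollen markers 3 passed, 1 higher and 2 lower, and 4 did not overlap between the genotypes. Beside these marker counts, 6.79% of all tested genes passed and 26.9% did not overlap. SUC1, a sucrose transporter, was higher, at 6672 ± 1474 in eml1 eml3 and 3816 ± 561 in WT (SD, n = 3 each; limma adjusted p = 0.0213), a call lost without replicate 1 or 2 of either genotype. PPME1, a pectin methylesterase gene of pollen, was lower, at 377 ± 140.2 in eml1 eml3 and 1480 ± 1066 in WT (SD, n = 3 each; limma adjusted p = 0.0276). AT5G45880, annotated as a pollen allergen-like protein, was lower, at 842 ± 300.02 in eml1 eml3 and 1776 ± 495 in WT (SD, n = 3 each; limma adjusted p = 0.0285). Both lost their calls without eml1 eml3 replicate 2 or WT replicate 3, and AT5G45880 also without WT replicate 1. The part of these marker genes in the differences of the 10 genes was not tested.

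PR2, EDS1 and PR5 each lie beside close relatives on the chromosome, whose values did not all go the same way as theirs. Of 7 relatives of PR genes 5 were tested and 1 passed, as lower, with a median log2 change of -0.82. In the glucanase cluster BG3 (AT3G57240) had counts of 4535, 3497 and 10292 in eml1 eml3, against 17816, 11841 and 12648 in WT. All mutant libraries were below all WT libraries, the opposite of PR2. The mean was 6108 ± 3660 in eml1 eml3 and 14102 ± 3242 in WT (SD, n = 3 each), and the log2 change was -1.34 ± 0.33 (SE; limma adjusted p = 0.0367). BG3 lost its call without any 1 library other than eml1 eml3 replicate 3, and also with a robust variance prior in limma, in edgeR with its filter and in DESeq2. BG1 (AT3G57270), the next tested gene on the other side of PR2, stood at 971 ± 136 in eml1 eml3 and 1290 ± 476 in WT (SD, n = 3 each; limma adjusted p = 0.397). Between PR2 and BG3 lies AT3G57250, annotated with an ENT domain like the EML proteins, at 34.1 ± 12.9 in eml1 eml3 and 68.6 ± 31.2 in WT (SD, n = 3 each; limma adjusted p = 0.300).

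Beside EDS1 lies its paralogue AT3G48080, with 82.6% identity over 2186 aligned transcript bases. AT3G48080 had counts of 17.9, 0 and 2.52 in eml1 eml3, against 22.6, 33.3 and 67.6 in WT. All mutant libraries were below all WT libraries, the reverse of EDS1, but the counts were low and the gene did not pass (log2 change -3.24 ± 1.09, SE; limma adjusted p = 0.110). It also overlaps AT3G48070 over 503 bases, so its count is uncertain. The sum of EDS1 and AT3G48080 was 860 ± 197 in eml1 eml3 and 573 ± 42.9 in WT (SD, n = 3 each), a ratio of 1.50. In the thaumatin-like cluster TLP-3 (AT1G75030) was at 231 ± 30.6 in eml1 eml3 and 121 ± 32.3 in WT (SD, n = 3 each; limma adjusted p = 0.0701). TLP-3 passed as higher in DESeq2 (log2 change 0.94, adjusted p = 0.0310). AT1G75050 was at 26.9 ± 35.9 in eml1 eml3 and 43.4 ± 13.8 in WT (SD, n = 3 each; limma adjusted p = 0.369), and passed as lower without eml1 eml3 replicate 3 (log2 change -2.85, limma adjusted p = 0.0371).

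**Figure D3:**
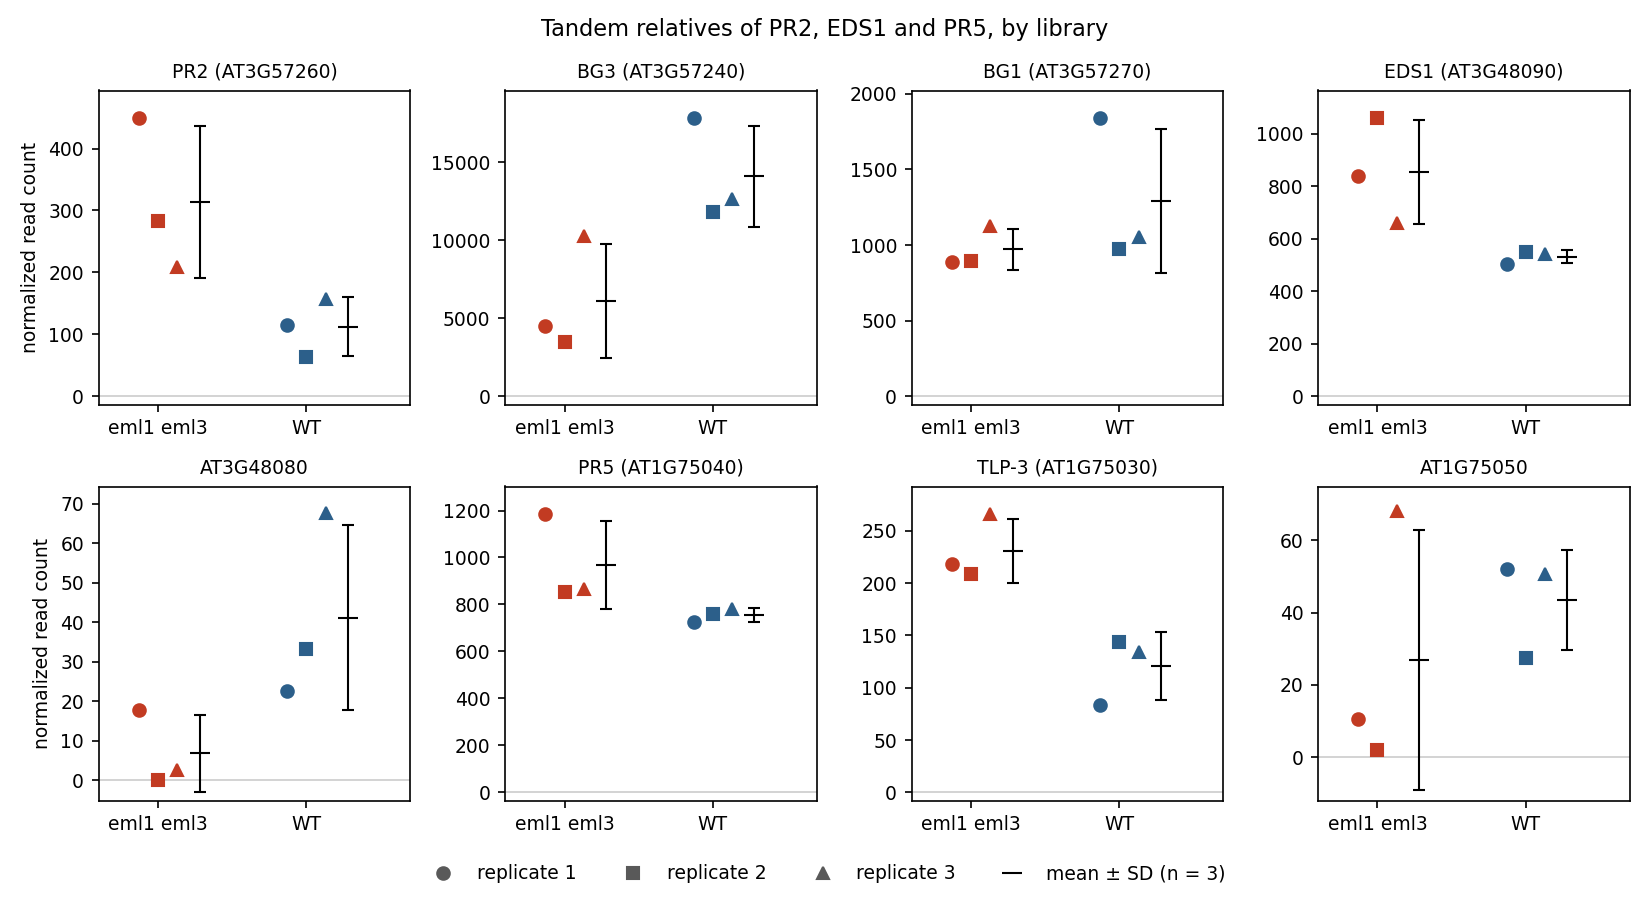
Normalized read count (y axis) of PR2, EDS1 and PR5 and of their tandem relatives in the 3 eml1 eml3 libraries (red, left) and the 3 WT libraries (blue, right), with mean ± SD (n = 3) in black. PR2 and EDS1 were higher in every eml1 eml3 library than in any WT library, while BG3 and AT3G48080 were lower in every one.

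Genes around the 10 were also counted. Of the 20 nearest tested genes, 5 passed beside CBP60G (25.0%), 4 higher and 1 lower in eml1 eml3, against 6.79% of all tested genes. Near WRKY70 2 passed, near PR2 and SARD1 1 each, and near PR1, PR5, SID2, EDS1, PAD4 and NPR1 0 each. The largest absolute log2 change among the 20 genes near CBP60G was 6.54. The tested genes directly next to CBP60G did not pass. TRM8 averaged 963 ± 111 in eml1 eml3 and 1113 ± 251 in WT (SD, n = 3 each; limma adjusted p = 0.587). DPD1, on its other side, averaged 741 ± 148 in eml1 eml3 and 663 ± 130 in WT (SD, n = 3 each; limma adjusted p = 0.693).

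The rest of the pathway was read from 12 lists of 110 genes, of which 93 were tested. Of these 13 passed (14.0% of the tested genes), 10 higher and 3 lower in eml1 eml3, beside 6.79% of all genes, and their median log2 change was 0.11. The count fell to 4 without eml1 eml3 replicate 1, to 5 without eml1 eml3 replicate 2, to 4 without WT replicate 1, to 4 without WT replicate 2 and to 8 without WT replicate 3. It rose to 18 without eml1 eml3 replicate 3, 12 higher and 6 lower, where 11.7% of all genes passed. In synthesis, 1 of 8 tested genes passed: PAL4, a phenylalanine ammonia-lyase, at 1600 ± 428 in eml1 eml3 and 840 ± 117 in WT (SD, n = 3 each; limma adjusted p = 0.0185), a call lost without WT replicate 1 or 2. PAL3 went the other way without overlap, at 276 ± 68.3 in eml1 eml3 and 468 ± 47.1 in WT (SD, n = 3 each; limma adjusted p = 0.0575). PAL3 passed as lower in DESeq2 (adjusted p = 0.0199) and without eml1 eml3 replicate 3 (limma adjusted p = 0.0117). EDS5, the transporter that exports the SID2 product from the plastid, was at 198 ± 36.8 in eml1 eml3 and 139 ± 33.1 in WT (SD, n = 3 each; limma adjusted p = 0.316). PBS3, which conjugates that product, was at 878 ± 206 in eml1 eml3 and 857 ± 42.9 in WT (SD, n = 3 each; limma adjusted p = 0.990). In modification, 1 of 8 tested of 9 genes passed, DMR6, a salicylic acid hydroxylase, at 1237 ± 315 in eml1 eml3 and 707 ± 130 in WT (SD, n = 3 each; limma adjusted p = 0.0478). DMR6 lost its call when libraries were rescaled to one total or to upper quartiles, and without any 1 library other than eml1 eml3 replicate 3.

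Of 13 NPR receptors and partners 1 passed, as lower. This was TGA1, a bZIP factor that partners NPR1, at 146, 124 and 108 in eml1 eml3, against 235, 245 and 280 in WT (log2 change -1.01 ± 0.24, SE; limma adjusted p = 0.0325). The mutant libraries were all below the WT libraries for 6 of the 13 genes and above for 1, NIMIN1, beside 12.8% below and 14.0% above of all tested genes, and the list's median log2 change was -0.42. TGA1 lost its call without any 1 library other than eml1 eml3 replicate 3. Of 8 EDS1 partners and helper receptors 1 passed, ADR1, a helper immune receptor that acts with EDS1 and PAD4, at 370, 465 and 450 in eml1 eml3, against 200, 220 and 281 in WT (log2 change 0.88 ± 0.21, SE; limma adjusted p = 0.0319). ADR1 lost its call without eml1 eml3 replicate 1 or 2 or WT replicate 1 or 2. SAG101, another EDS1 partner, was at 155 ± 23.6 in eml1 eml3 and 257 ± 54.5 in WT (SD, n = 3 each; limma adjusted p = 0.123).

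None of the 6 other CBP60 genes passed in limma, edgeR or DESeq2 with all 6 libraries, although 1 had an unadjusted p under 0.05 and all 6 log2 changes were positive, with a median of 0.24. The top pair by p was CBP60A, at 549 ± 73.9 in eml1 eml3 and 394 ± 31.4 in WT (SD, n = 3 each; limma adjusted p = 0.138), and AT4G31000, at 244 ± 78.9 in eml1 eml3 and 157 ± 25.6 in WT (SD, n = 3 each; limma adjusted p = 0.287). AT4G31000 passed as higher without eml1 eml3 replicate 3 (log2 change 0.89, limma adjusted p = 0.0423). Of 11 tested defence WRKY genes 2 passed, both higher and both related regulators of basal defence. WRKY60 was at 777 ± 32.1 in eml1 eml3 and 493 ± 91.8 in WT (SD, n = 3 each; limma adjusted p = 0.0401). WRKY18 was at 633 ± 74.1 in eml1 eml3 and 411 ± 34.6 in WT (SD, n = 3 each; limma adjusted p = 0.0496). Both lost their calls when libraries were rescaled to one total, and both were lost without eml1 eml3 replicate 1 or 2 or WT replicate 1 or 2. WRKY54, the close relative of WRKY70, did not pass, at 311 ± 83.2 in eml1 eml3 and 283 ± 72.4 in WT (SD, n = 3 each; limma adjusted p = 0.820).

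Of 6 genes of N-hydroxypipecolic acid and systemic resistance 3 were tested, and none passed in limma, edgeR or DESeq2, with 2 at an unadjusted p under 0.05. AT5G03350 was at 636 ± 63.8 in eml1 eml3 and 467 ± 46.7 in WT (SD, n = 3 each; limma adjusted p = 0.133). SARD4 was at 2075 ± 162 in eml1 eml3 and 2733 ± 548 in WT (SD, n = 3 each; limma adjusted p = 0.162).

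Other salicylic acid outputs differed in direction. Of 7 tested genes 1 passed as higher and 1 as lower. SAG13, a short-chain dehydrogenase gene, was at 846 ± 247 in eml1 eml3 and 433 ± 68.5 in WT (SD, n = 3 each; limma adjusted p = 0.0284), a call lost without eml1 eml3 replicate 1 or 2 or WT replicate 1 or 2. PCC1, a small membrane protein gene, was at 73.0, 87.1 and 166 in eml1 eml3, against 559, 406 and 566 in WT (log2 change -2.30 ± 0.31, SE; limma adjusted p = 0.00199). PCC1 has a near-identical copy, AT3G22235 (99.4% identity over 344 bases), at 4.90 in eml1 eml3 and 145 in WT, so the count of either is uncertain.

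Of 14 jasmonate and ethylene genes 8 were tested and 3 passed, all higher, beside 6.79% of all tested genes. VSP2, a vegetative storage protein induced by jasmonate, was at 34428 ± 11817 in eml1 eml3 and 4493 ± 502 in WT (SD, n = 3 each; log2 change 2.89 ± 0.20, SE; limma adjusted p = 2.40e-05). VSP1 was at 80966 ± 4631 in eml1 eml3 and 26671 ± 1579 in WT (SD, n = 3 each; limma adjusted p = 4.79e-05). JAZ1, a repressor of jasmonate responses, was at 2370 ± 153 in eml1 eml3 and 1568 ± 139 in WT (SD, n = 3 each; limma adjusted p = 0.0153), a call lost without eml1 eml3 replicate 1. VSP1, VSP2 and PCC1 passed in all 20 alternatives. The median log2 change of the list was 0.06. Without eml1 eml3 replicate 3, PR4 of the list passed as lower (log2 change -0.65, limma adjusted p = 0.0378). AOS passed as higher in that setting (log2 change 0.53, limma adjusted p = 0.0450). Of 8 tested genes of pattern-triggered immunity and camalexin 1 passed, FLS2, the flagellin receptor, at 1289 ± 254 in eml1 eml3 and 792 ± 110 in WT (SD, n = 3 each; limma adjusted p = 0.0450). FLS2 lost its call when libraries were rescaled to one total, and without any 1 library other than eml1 eml3 replicate 3. EFR, another gene of that list, passed as higher in DESeq2 (log2 change 0.71, adjusted p = 0.0436). In limma 7 of the 8 log2 changes were positive and 1 was negative. For 4 of the 8 genes all mutant libraries were above the WT libraries, beside 14.0% of all tested genes. Of 8 repressors of salicylic acid defence 0 passed in limma, where 0 also had an unadjusted p under 0.05, and edgeR and DESeq2 called none. The smallest p belonged to CAMTA2, at 846 ± 68.0 in eml1 eml3 and 694 ± 145 in WT (SD, n = 3 each; limma adjusted p = 0.345), and ANAC019, at 385 ± 209 in eml1 eml3 and 504 ± 134 in WT (SD, n = 3 each; limma adjusted p = 0.467).

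**Figure D4:**
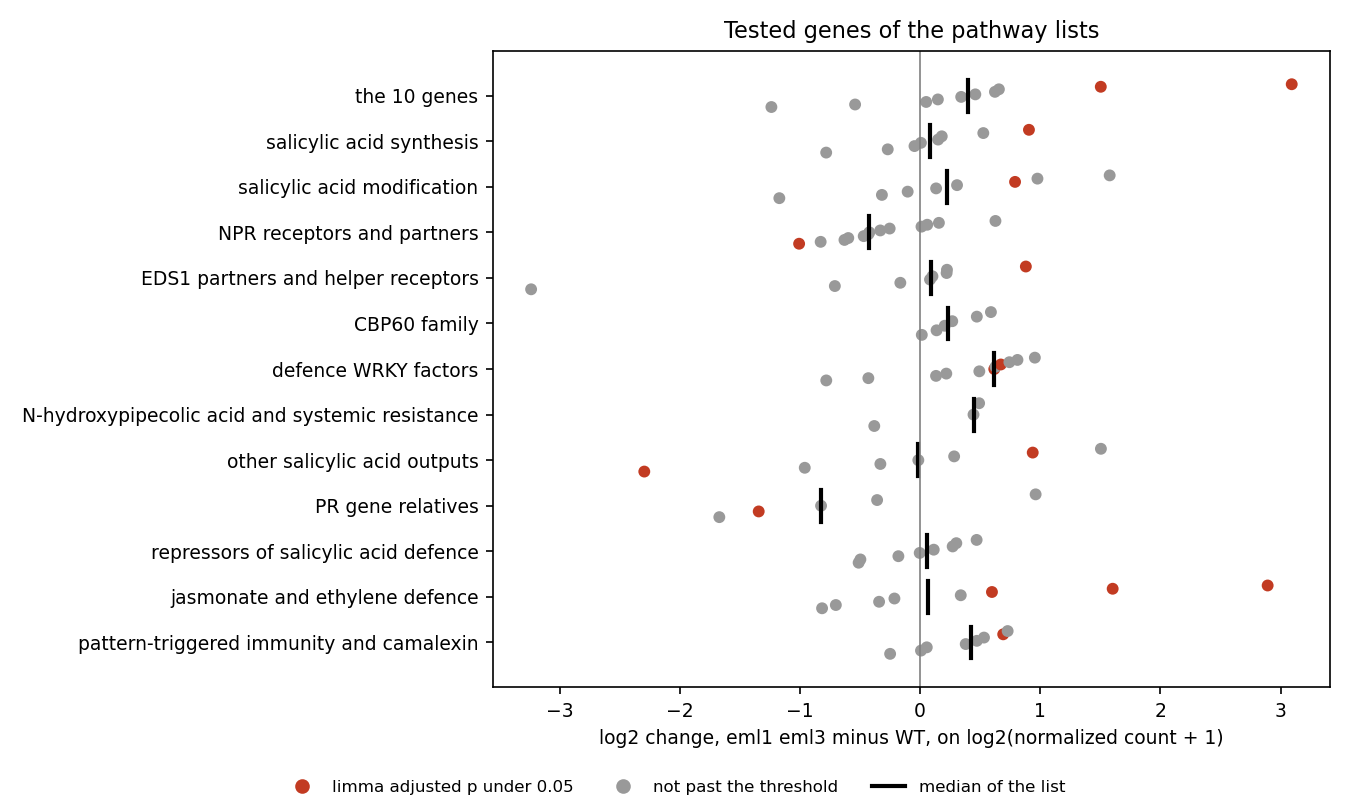
Log2 change (x axis, eml1 eml3 minus WT, on log2(normalized count + 1)) of the tested genes of each list, 1 point per gene, red for a limma adjusted p under 0.05, with a black bar at the median of the list. The 10 genes have a median of 0.40, and NPR receptors and partners and PR gene relatives have medians of -0.42 and -0.82.

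Over the 6 libraries, genes whose log2 values followed those of CBP60G or PR2 most closely were named from 8202 genes with a symbol and a mean of at least 50. For CBP60G these were CYP705A19 (Pearson r = 0.994), 4CL3 (0.992) and ARGAH2 (0.992). For PR2 they were RLP23 (0.985), XTH19 (0.981) and LPLAT1 (0.977). The correlations share the 6 libraries and the difference between the genotypes, and they are given as a description only.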

How the data were processed

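Polyadenylated silique RNA was sequenced in 3 eml1 eml3 and 3 WT libraries. The authors deposited signal: read counts per gene, scaled in DESeq2 by size factors, per the file headers. The submitters' processing notes also name Trim Galore, STAR 2.5.2a, SAMtools, featureCounts and Subread. Genome build, annotation, strand setting and the handling of multi-mapped reads were not given. The authors' other deposited table lists their log2 fold changes with SE, a test score and p-values, per the file headers.

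Within 1e-06, all signal values were whole multiples of the smallest in their library, and whole reads were recovered from them. Among counts of 1 to 20 reads, 69.3% to 73.9% were even, so reads may not be independent molecules, and floors cover counting error only.

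Genes with a mean of at least 10 (21751) were tested on log2(value + 1), eml1 eml3 minus WT, by limma 3.58.1 with a trended variance (R 4.3.3). Tests were two-sided and Benjamini-Hochberg adjusted over all tested genes, with a threshold of 0.05. Log2 changes of low genes depend on the pseudocount, which can understate them or, where a library has 0 reads, make them larger than in edgeR or DESeq2. Alternatives were other pseudocounts (0.5 and 5), filters, scalings, a robust prior, a replicate block, leaving out libraries, and edgeR 4.0.16 and DESeq2 1.42.0 on recovered reads. The scripts were tested on simulated counts.

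The rule for named genes took the 10 genes, the EML genes, up to 4 called genes per list (the 2 of smallest p where none passed), the tested genes beside each called member and the 3 genes most like it. Other genes were named after their values were seen. The members and the lists were chosen with earlier results of these data known. Names and start regions came from RefSeq TAIR10.1, which held 37051 of the 37336 IDs. Copies were sought with BLAST 2.17.0.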

Additional observations from a re-analysis of the deposited data

How the results depend on the processing

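Of the 10 genes, 2 passed in limma. The count was 1 with no filter, 1 with a mean of at least 50 (CBP60G was then not tested), 1 with libraries rescaled to one total, and 0 to 3 when each library was left out in turn, with 3 without eml1 eml3 replicate 3. With the replicate number as a block it was 0 in limma (adjusted p 0.0572 for CBP60G and 0.0619 for PR2) and 0 in edgeR (0.0741 and 0.0751). Deviations of same-numbered libraries from their genotype means correlated at -0.0788, -0.00199 and -0.169, and no library correlated best with its own number. Read totals in eml1 eml3 and WT were 39246167 and 38196040 for number 1, 31569842 and 31503946 for number 2, and 26771227 and 27046107 for number 3. These values, from 3 libraries per genotype, do not decide whether the numbers pair the libraries. With the block 1203 of all genes passed in limma and 1009 in edgeR, and of the other pathway genes 9 and 7. Over all genes 1476 passed in limma, 573 to 2537 when each library was left out, 2691 without both libraries numbered 3, and 2397 in DESeq2. Of the other pathway genes 13 passed, and 4 to 18 when each library was left out. SID2 had a log2 change of -0.012 rescaled to one total and -0.21 without both libraries numbered 3, and -0.12 to 0.18 leaving out each library. PAD4 ranged from -0.10 to 0.37 and SARD1 from -2.41 to 0.44 in the same way. The cause of these shifts was not tested. PR1, PR5, NPR1 and WRKY70 kept their direction and did not pass under any alternative that tested them. Depth limits CBP60G, SARD1 and PR1 most, with 2 to 66 reads in a library that had any.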

Other observations

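Several genes that often accompany salicylic acid defence were too low to test. FMO1, which makes N-hydroxypipecolic acid, had normalized counts of 0, 10.1 and 5.04 in eml1 eml3, against 0.838, 1.96 and 0 in WT. GRX480, a glutaredoxin gene that interacts with TGA factors, had 8.93, 8.10 and 2.52 in eml1 eml3, against 5.03, 1.96 and 0 in WT. The camalexin genes PAD3 and CYP71A13 averaged 6.92 and 7.43 in eml1 eml3, and 5.79 and 1.31 in WT. PDF1.2A, a marker of jasmonate and ethylene defence, was listed at 0 in every library. MYC2 and DIR1 were also listed at 0, and in the reference 98.5% and 100% of their length is overlapped by a gene on the opposite strand.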
